A study of Mus musculus with 14 samples.

Results

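The 9 genes described here encode the arm of the sympathetic response that raises cyclic AMP in brown fat: the receptors Adrb3, Adrb1, Adora2a and Gpr3, the stimulatory G protein subunit Gnas, the adenylyl cyclase Adcy3, the protein kinase A (PKA) subunits Prkaca and Prkar2b, and the phosphodiesterase Pde3b. They were chosen by name, as 9 of the 35275 genes in the table, and 8 of them passed the filter on low values; Gpr3 did not. RNA-seq was made from homogenized brown adipose tissue of 14 C57BL/6 mice, all 8 weeks old. All mice carried the floxed Lrpprc allele (LrpprcFF), and the knockouts also carried Ucp1-Cre, which deletes the gene in cells that express Ucp1, so the other cells of the tissue keep it. At 22 °C (room temperature) there were 4 controls and 4 knockouts, and at 30 °C (thermoneutrality, where a mouse needs no extra heat production) 3 controls and 3 knockouts. The labels give no sex, and they do not say whether the mice of a group were littermates.

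In brown fat, noradrenaline from sympathetic nerves binds β-adrenergic receptors. These act through the stimulatory G protein on adenylyl cyclase, which makes cyclic AMP. Cyclic AMP releases the catalytic subunits of PKA from the regulatory subunits, and PKA then drives lipolysis and the transcription of thermogenic genes, while phosphodiesterases degrade cyclic AMP. LRPPRC, the product of the deleted gene, stabilizes mitochondrial messenger RNAs.

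The upstream sequences of 3 members on which the comparisons turn are shown, because the cAMP response element is the DNA motif through which PKA acts on transcription. RefSeq start-site windows (build GRCm38.p6, 250 bases before to 50 after a start) matched 6 of the 9 members by symbol, in 12 windows; there was none for Adrb3, Adora2a and Pde3b. The 250 bases before the start are given 5′ to 3′ on the gene's strand, with the core motif TGACG, read on either strand, in capitals.
Adrb1, chr19:56721867-56722116, plus strand: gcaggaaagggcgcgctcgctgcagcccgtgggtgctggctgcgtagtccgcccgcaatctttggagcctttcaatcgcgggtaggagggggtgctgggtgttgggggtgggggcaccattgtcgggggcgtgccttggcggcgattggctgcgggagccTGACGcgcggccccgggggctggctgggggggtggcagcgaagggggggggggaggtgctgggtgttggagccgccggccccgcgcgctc
Prkaca, chr8:83972728-83972977, plus strand: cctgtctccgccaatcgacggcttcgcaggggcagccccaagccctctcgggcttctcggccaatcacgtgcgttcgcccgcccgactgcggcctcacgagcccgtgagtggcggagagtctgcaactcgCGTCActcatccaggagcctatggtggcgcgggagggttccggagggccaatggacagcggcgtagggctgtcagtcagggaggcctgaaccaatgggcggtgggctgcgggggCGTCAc
Prkar2b, chr12:32061278-32061527, minus strand: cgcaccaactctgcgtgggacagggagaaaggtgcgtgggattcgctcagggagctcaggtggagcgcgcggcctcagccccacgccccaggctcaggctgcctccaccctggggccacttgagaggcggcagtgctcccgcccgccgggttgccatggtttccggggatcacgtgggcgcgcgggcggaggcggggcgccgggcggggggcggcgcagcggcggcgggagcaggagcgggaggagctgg
The Adrb1 window held TGACG at 1 position, the Prkaca window at 2 and the Prkar2b window at 0. Over the members, 6 of 12 windows held it, 1 of them for Adrb1, 1 for Gpr3, 1 for Prkaca and 3 for Gnas, the last 3 at partly shared positions. Over all 32851 windows the share was 20.8%. The shares were not matched for base composition, which was 51.3% to 81.7% GC in the member windows, so they do not show an excess of the motif. The full palindrome TGACGTCA, which contains TGACG on both strands, was in 0 of the 12 windows and in 1.79% of all windows. A match is a description of letters and does not show binding.

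Values are scaled FPKM, that is, the deposited FPKM (a fragment count corrected for transcript length and library depth) divided by a factor for each library. Depth, recovered from the steps between low values, was 15922433 to 21319569 fragments. Lrpprc itself was at 25.1 to 59.9 in the controls and 8.997 to 11.2 in the knockouts at 22 °C, and at 29.9 to 32.2 and 4.82 to 8.23 at 30 °C, so every genotype label matched. It does not check the label of housing temperature. Markers of brown adipocytes summed to 20634 to 28331 in controls and 16168 to 21843 in knockouts at 22 °C, and to 15061 to 18818 and 7889 to 9693 at 30 °C. Xist was at 9.59 to 14.9 in all 6 libraries at 30 °C and at no more than 0.0137 in all 8 at 22 °C. Ddx3y, on the Y chromosome, showed the reverse. By these genes the mice at 30 °C were female and those at 22 °C male. For every gene, therefore, a difference between temperatures, also of knockout effects, cannot be told apart from a difference between the sexes. The labels give no batch, so a batch shared by the mice of 1 temperature cannot be told apart either. Over all genes, GC content moved with the fold change between temperatures (Spearman's rho = -0.57 in controls, -0.48 in knockouts). For genotype, rho was 0.06 at 22 °C and 0.11 at 30 °C. The cause was not tested. Room-temperature control 4 stood apart: it had the lowest value of its group for Adrb1, Adrb3, Gnas, Adcy3, Prkaca, Prkar2b and Pde3b and the highest for Adora2a, with endothelial markers at 431 in sum against 198 to 241 in the other controls at 22 °C. It and room-temperature control 3 have identifiers that begin with R, where all others begin with E. Summed skeletal muscle markers ran from 25.4 to 14998 over the 14 libraries. At 22 °C they were at 7759 and 4424 in controls 3 and 4, the R controls, and at 529 to 1651 in the other libraries. At 30 °C control 1 had 14998, and the other libraries had 25.4 (control 3) to 9213 (knockout 1). The part of muscle in the members' values was not tested.

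The members are first counted over the comparisons, each fitted over all genes. At an adjusted p under 0.05, 0 of the 8 members tested were called for genotype at 22 °C by limma (0 also at an unadjusted p under 0.05), where 1.80% of all 13079 genes were called (0.833% higher, 0.963% lower). At 30 °C 1 of 8 was called, Prkaca, which was lower, against 13.3% of all genes (7.73% higher, 5.53% lower). The median log2 fold change of the 8 members at 30 °C was -0.39. Between temperatures 4 of 8 were called in controls, Prkar2b and Pde3b higher and Adrb1 and Adora2a lower at 22 °C, where 38.4% of all genes were called (19.9% higher, 18.5% lower). After a correction for GC content 1 of these 4 calls in controls held, that of Adrb1. In knockouts 4 of 8 were called, Prkar2b, Pde3b and Adcy3 higher and Adrb1 lower, against 51.8% of all genes (25.6% higher, 26.2% lower), and all 4 held after that correction. The ranges of the groups did not overlap for 0 of 8 members in the genotype comparison at 22 °C (9.11% of all genes), 2 of 8 at 30 °C (36.3%), 2 of 8 between temperatures in controls (43.4%) and 4 of 8 in knockouts (56.2%). No gene was called for a difference of the knockout effect between temperatures by limma, with 1610 genes and 1 member, Prkaca, at an unadjusted p under 0.05; 180 genes were called with sample weights and 110 without knockout 2 at 30 °C. The temperature comparisons share their libraries with the genotype comparisons, and the temperatures also differ in the sex that Xist and Ddx3y mark.

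**Figure D1:**
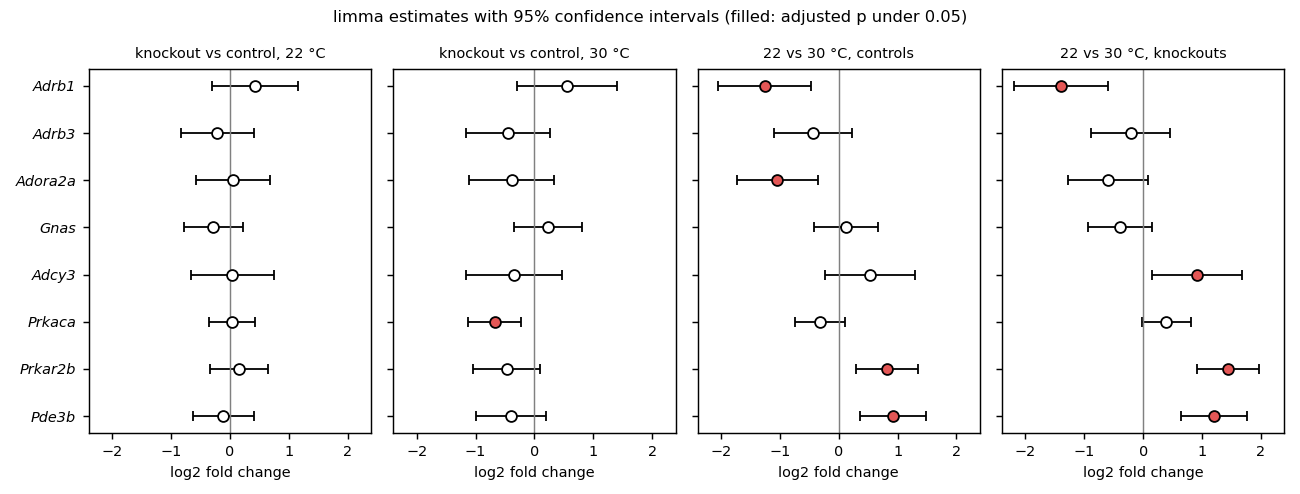
Log2 fold changes of the 8 members tested (horizontal axis) with 95% confidence intervals, in the 4 comparisons; filled points have an adjusted p under 0.05. The filled points are Prkaca for genotype at 30 °C, and Adrb1, Prkar2b and Pde3b for temperature in both genotypes with Adora2a in controls and Adcy3 in knockouts.

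Adrb3 encodes the main β-adrenergic receptor of rodent brown adipocytes. Its scaled FPKM was 88.5, 127, 95.6 and 43.7 in controls 1 to 4 at 22 °C and 58.6, 73.7, 98.1 and 60.2 in knockouts 1 to 4. At 30 °C it was 133, 100.3 and 108 in controls and 117, 62.2 and 77.2 in knockouts. The groups overlapped in every comparison. The log2 fold change of knockout against control, on the log2(scaled FPKM + 1) scale used for all fold changes, was -0.22 ± 0.29 (SE; limma, adjusted p = 0.759) at 22 °C and -0.45 ± 0.33 (adjusted p = 0.428) at 30 °C. Adrb3 overlaps an antisense gene, Gm45470, and whether counting used strand is not given in the sources used here, so reads of the pair cannot be told apart.

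Adrb1, the β1 receptor, was the member with the largest difference between temperatures in controls. Controls at 22 °C had 12.002, 7.41, 7.61 and 7.25 scaled FPKM and knockouts 12.3, 14.4, 7.87 and 12.7. At 30 °C, controls had 8.77, 38.0 and 28.8 and knockouts 26.8, 37.7 and 32.8. Every knockout at 30 °C lay above every knockout at 22 °C, while control 1 at 30 °C lay within the range of the controls at 22 °C. Relative to 30 °C, Adrb1 was lower at 22 °C by a log2 fold change of -1.26 ± 0.37 (limma, adjusted p = 0.0172) in controls and -1.40 ± 0.37 (adjusted p = 0.00689) in knockouts. Without control 1 at 30 °C the value in controls was -1.86, without control 2 it was -0.86 (adjusted p = 0.0952), without control 3 it was -1.05 (adjusted p = 0.0713), without the room-temperature controls whose identifiers begin with R it was -1.11 (adjusted p = 0.0745), and with the compared groups alone -1.27 (adjusted p = 0.0569). The knockout effect was 0.42 ± 0.34 at 22 °C (limma, adjusted p = 0.597) and 0.56 ± 0.39 at 30 °C (adjusted p = 0.400), so neither passed the test; without control 1 at 30 °C the latter was -0.04.

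The ratio of Adrb3 to Adrb1 was 6.02 to 17.2 in controls and 4.73 to 12.5 in knockouts at 22 °C, and 2.64 to 15.1 in controls and 1.65 to 4.35 in knockouts at 30 °C. It overlapped between genotypes at each temperature and between temperatures in controls, but not between temperatures in knockouts. The α1 receptors, which couple to another G protein, changed places between temperatures: Adra1a held 69.6% to 78.7% of their summed scaled FPKM in controls at 22 °C and 24.7% to 38.1% at 30 °C. Adra1a was higher at 22 °C by 0.80 in controls and 1.17 in knockouts, and the log2 fold change of Adra1d was -1.74 in each genotype (limma, adjusted p from 0.000334 to 0.0308). The ranges of Adra1a overlapped in controls, where its call was lost in 4 of 7 fits without 1 animal (0.67 to 0.81, adjusted p up to 0.111), without a filter and with the compared groups alone. After GC correction Adra1d in knockouts was -0.70 (adjusted p = 0.121). Shares and ratios are descriptions without a test.

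**Figure D2:**
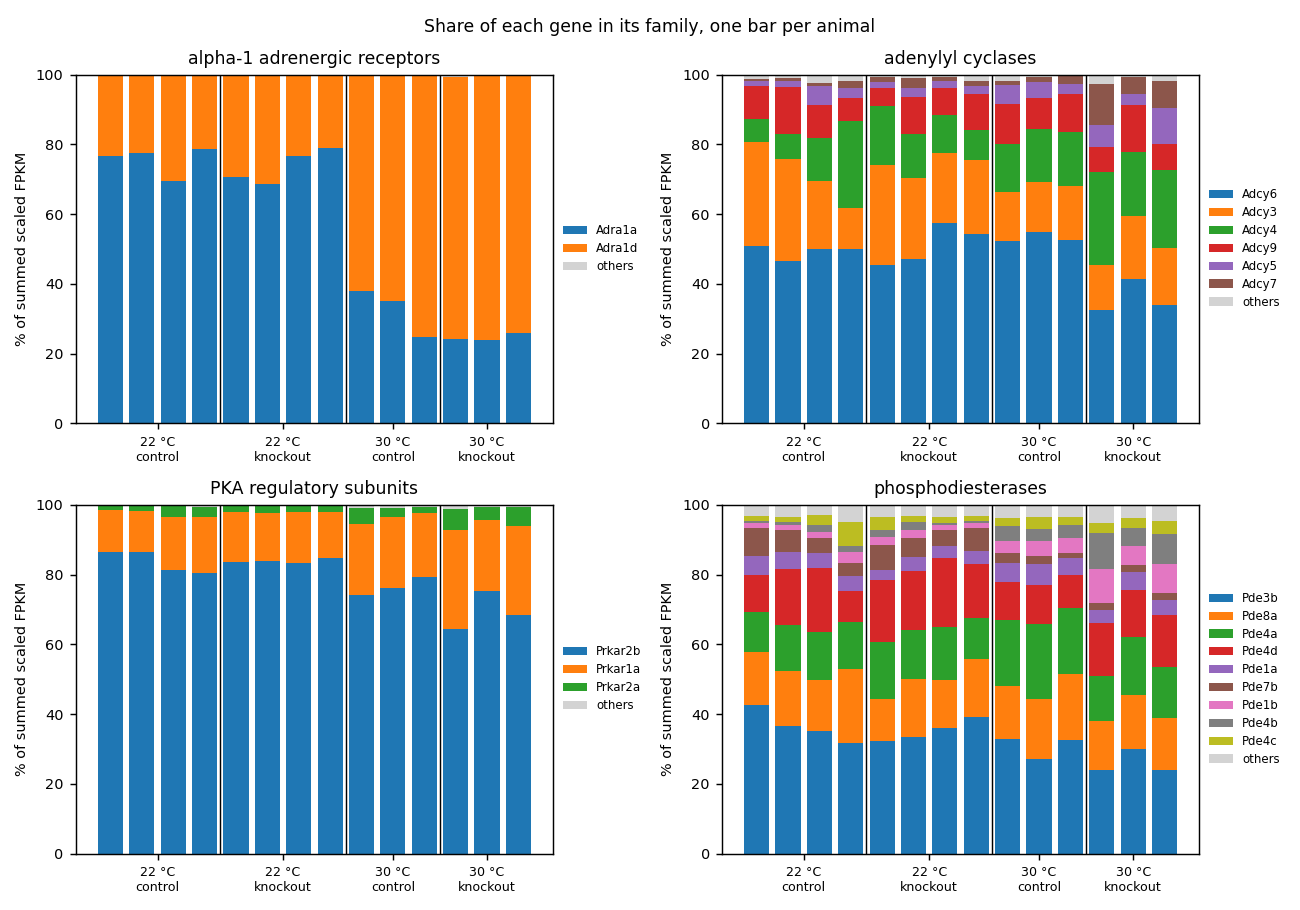
Stacked bars give each gene's percentage of the summed scaled FPKM of its family, 1 bar per animal, with vertical lines between the 4 groups; grey is the rest of the family. Adra1a held more than Adra1d in the bars at 22 °C and less at 30 °C, while Prkar2b and Pde3b were the largest part of the family genes counted in all 14 bars. Pde2a was not found by its symbol and is not in the phosphodiesterase bars.

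Adora2a encodes an adenosine receptor that also couples to the stimulatory G protein. It was at 3.99, 5.94, 4.91 and 10.04 in controls and 11.2, 5.07, 5.90 and 4.09 in knockouts at 22 °C, and at 11.5, 16.2 and 12.2 in controls and 8.67, 14.7 and 7.39 in knockouts at 30 °C. The 3 controls at 30 °C were above all 4 controls at 22 °C, and the knockouts overlapped. The log2 fold change, 22 against 30 °C, was -1.04 ± 0.32 in controls (limma, adjusted p = 0.0205) and -0.60 ± 0.32 in knockouts (adjusted p = 0.125). GC content, which moved with the temperature fold change over all genes (Spearman's rho = -0.57 in controls and -0.48 in knockouts, over 13014 genes, which are not replicates), is high in Adora2a, at 60.5%. After a correction for GC the value in controls was -0.53 (adjusted p = 0.207) and in knockouts 0.09. Without control 1 at 22 °C or control 2 at 30 °C the control value was -0.89 (adjusted p = 0.05997) or -0.90 (adjusted p = 0.0834). The knockout effect on Adora2a was 0.05 ± 0.29 at 22 °C and -0.39 ± 0.34 at 30 °C (limma, adjusted p = 0.954 and 0.510).

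Gpr3, a receptor that signals through the stimulatory G protein without a known ligand, was close to the limit of detection except in 1 animal. Recovered reads were 0, 1, 1 and 0 in controls and 41, 2, 1 and 1 in knockouts at 22 °C, and 2, 2 and 1 in controls and 6, 1 and 4 in knockouts at 30 °C. A count of 0 allows up to 3 reads, which was 0.0478 to 0.0764 scaled FPKM in these libraries and covers counting error only. Knockout 1 at 22 °C reached 0.818 scaled FPKM, while the other 3 knockouts there reached 0.0208 to 0.0372. Gpr3 overlaps Cd164l2 on the opposite strand; Cd164l2 was at 1.99 in that animal and 0.407 to 3.28 over the 14. No test was made.

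Gnas encodes the stimulatory G protein α subunit, from a locus with several promoters and overlapping transcripts, including Nespas and Gm20721 on the opposite strand. It was at 20.6, 17.9, 17.6 and 16.5 in controls and 18.9, 8.83, 20.8 and 13.3 in knockouts at 22 °C. At 30 °C it was at 11.01, 21.7 and 18.5 in controls and 21.2, 19.8 and 17.7 in knockouts. The group means were 15.4 to 19.6, and the ranges overlapped in all comparisons. The knockout effect was -0.28 ± 0.23 at 22 °C and 0.23 ± 0.27 at 30 °C (limma, adjusted p = 0.606 and 0.636).

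Adcy3, the adenylyl cyclase among the members, was at 40.0, 40.9, 20.7 and 10.02 in controls and 29.6, 24.0, 25.1 and 21.7 in knockouts at 22 °C. At 30 °C it was at 15.9, 15.9 and 17.6 in controls and 10.2, 15.6 and 12.8 in knockouts. All 4 knockouts at 22 °C were above all 3 at 30 °C, and the log2 fold change was 0.92 ± 0.35 (limma, adjusted p = 0.0434). In 6 of the 7 fits that left out 1 animal that call was lost (0.76 to 0.99, adjusted p up to 0.150; it held without knockout 2 at 30 °C), and it was lost in 4 other fits. In controls the difference was 0.54 ± 0.35 (limma, adjusted p = 0.245), which became 0.94 (adjusted p = 0.00595) without room-temperature control 4 and 1.25 (adjusted p = 0.000209) without both controls whose identifiers begin with R. The knockout effect at 22 °C was 0.03 ± 0.33 (adjusted p = 0.976) and turned to -0.68 (adjusted p = 0.0437) without those controls; at 30 °C it was -0.35 ± 0.38 (limma, adjusted p = 0.611), although the groups did not overlap. Adcy3 overlaps Cenpo on the opposite strand; Cenpo was at 1.01 to 1.71 in the 14 libraries.

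Adcy6, which PKA can inhibit, was the cyclase with the highest level. It fell in the knockouts at 30 °C (log2 fold change -1.03 ± 0.19, limma, adjusted p = 0.00473), from 58.8, 61.1 and 60.1 in controls to 25.8, 35.6 and 26.3, with no overlap. Its share of all cyclase FPKM was 53.2% ± 1.42 in controls and 35.9% in knockouts on average (n = 3 each), and Adcy3 held 14.6% ± 0.69 and 15.8% ± 2.67.

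Prkaca, the catalytic subunit Cα of PKA, was the only member called in a knockout comparison. At 30 °C the controls had 184, 208 and 191 scaled FPKM and the knockouts 104, 145 and 117, and the groups did not overlap. The log2 fold change was -0.68 ± 0.21 (limma, adjusted p = 0.0466), a ratio of 0.63 on that scale. The call was lost in 5 of the 6 fits that left out 1 animal (-0.72 to -0.56, adjusted p from 0.0899 to 0.183; without knockout 2 it was -0.80, adjusted p = 0.0306) and in 6 of 12 other fits, where the effect nearest 0 was -0.34 (adjusted p = 0.157) for FPKM as deposited. At 22 °C the controls had 191, 188, 159 and 102 and the knockouts 144, 147, 188 and 163, which overlapped (0.04 ± 0.18, limma, adjusted p = 0.946). The difference between the knockout effects at the 2 temperatures was 0.71 ± 0.28 (22 minus 30 °C; limma, adjusted p = 0.312) and did not pass the test.

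Several cell-type marker lists moved in the same comparison at 30 °C. Of 10 brown adipocyte markers 6 were lower and none higher in knockouts, where 5.53% of all genes were called lower and 7.73% higher. Of 12 macrophage markers 11 were higher (summed level 644 to 1953 against 119 to 423 in controls), and 5 of 6 fibroblast markers were higher (386 to 761 against 206 to 240). Of 8 endothelial markers 1, Cldn5, was called higher (log2 fold change 2.35) and none lower, while 7 had negative fold changes. The endothelial sum was nonetheless 783 to 859 against 441 to 481. The part of these in the Prkaca value was not tested, and in whole tissue fewer cells of a type and less RNA per cell cannot be told apart. Markers of sympathetic neurons summed to 0.304 to 1.42 over all libraries, and 0 of 6 passed the filter on low values.

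Prkar2b, the regulatory subunit RIIβ that prevails in fat, had the highest level of the members. At 22 °C it was at 578, 535, 335 and 262 in controls and 445, 430, 434 and 501 in knockouts. At 30 °C it was at 205, 222 and 267 in controls and 139, 222 and 147 in knockouts. Knockouts at 22 °C were all above those at 30 °C, with a log2 fold change of 1.44 ± 0.25 (limma, adjusted p = 0.000523), called in all 12 alternatives and all 7 fits without 1 animal. In controls it was 0.82 ± 0.25 (limma, adjusted p = 0.0196), with control 4 at 22 °C within the range at 30 °C. That call was lost after GC correction (0.53, adjusted p = 0.0880), with the compared groups alone (0.80, adjusted p = 0.0577) and without any of 4 animals, controls 1 and 2 at either temperature (0.65 to 0.79, adjusted p from 0.0580 to 0.0681). The knockout effect was 0.15 ± 0.23 at 22 °C (limma, adjusted p = 0.789) and -0.47 ± 0.26 at 30 °C (adjusted p = 0.276).

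Among the PKA regulatory subunits Prkar2b held 83.7% and 83.8% on average in controls and knockouts at 22 °C, and 76.6% and 69.3% at 30 °C. Prkar1a, the RIα subunit, held 13.7%, 14.1%, 19.7% and 24.8%. The ratio of Prkar2b to Prkaca was 2.11 to 3.02 in controls and 2.31 to 3.09 in knockouts at 22 °C, and 1.06 to 1.40 and 1.25 to 1.53 at 30 °C. It did not overlap between temperatures in either genotype, and it overlapped between genotypes at each temperature. These shares and this ratio were not corrected for GC content, which is 45.6% in Prkar2b and 53.6% in Prkaca.

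Pde3b, the phosphodiesterase through which insulin lowers cyclic AMP in adipocytes, was at 85.1, 72.8, 55.5 and 37.4 in controls and 44.7, 49.4, 62.0 and 67.8 in knockouts at 22 °C. At 30 °C it was at 34.1, 25.3 and 34.9 in controls and 21.5, 32.3 and 18.3 in knockouts. In each genotype every value at 22 °C exceeded every value at 30 °C. The log2 fold change was 0.92 ± 0.26 in controls (limma, adjusted p = 0.0146) and 1.21 ± 0.26 in knockouts (adjusted p = 0.00219). Pde3b has a GC content of 38.7%, lower than in nearly all genes tested (percentile 1.101), and after GC correction the control value was 0.42 (adjusted p = 0.177). Without control 2 at 30 °C it was 0.78 (adjusted p = 0.0667). In knockouts the call held in all 12 alternatives, with 0.82 as the lowest value. The knockout effect was -0.12 ± 0.24 at 22 °C and -0.40 ± 0.28 at 30 °C (limma, adjusted p = 0.857 and 0.398). Pde3b held 36.5%, 35.3%, 30.8% and 25.98% of the FPKM of 15 phosphodiesterases in controls and knockouts at 22 °C and then at 30 °C. Pde2a, also listed, was not found by its symbol and is not among these 15, so the shares leave it out.

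**Figure D3:**
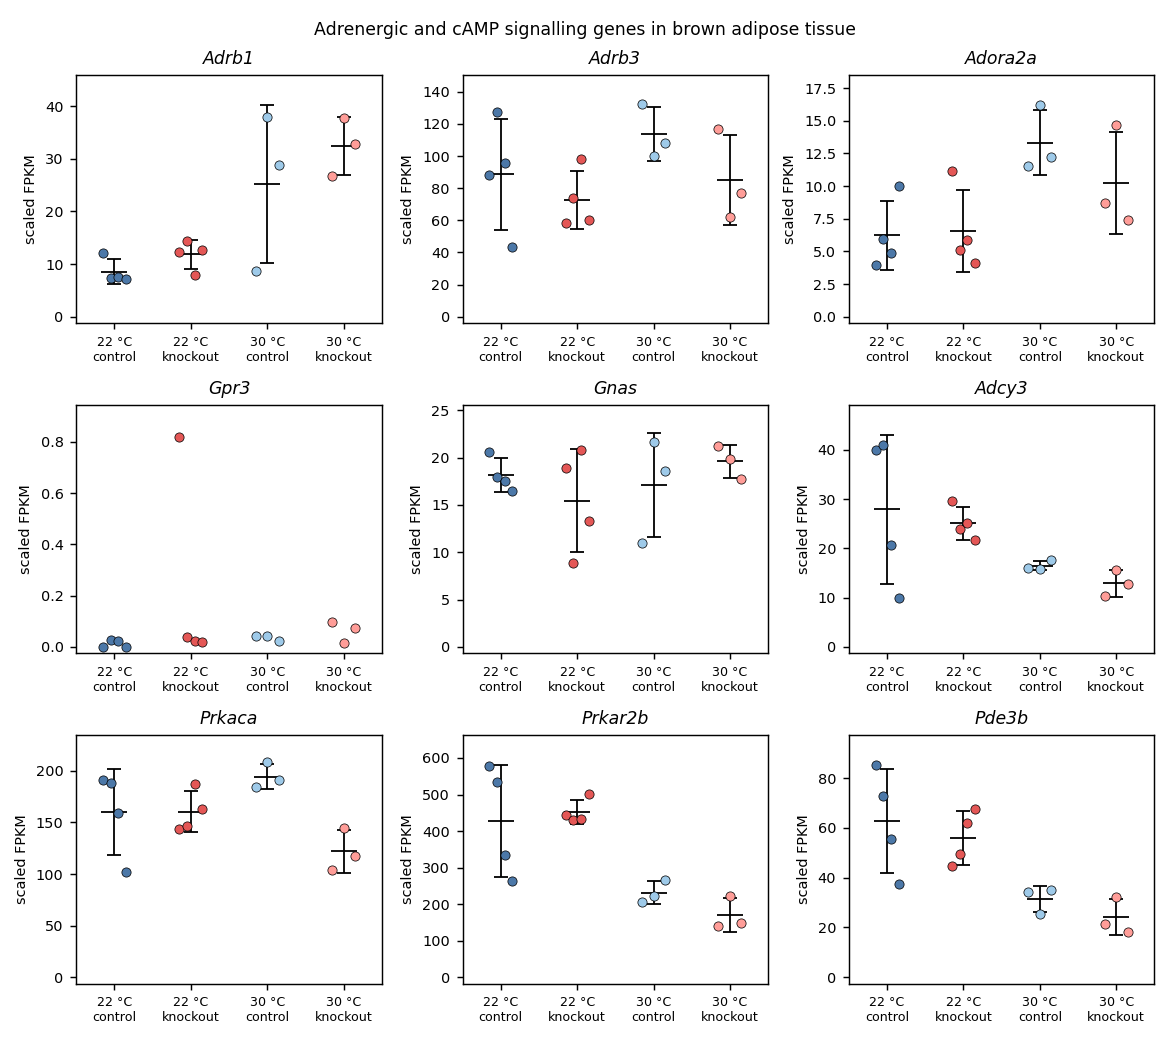
Each point is the scaled FPKM of 1 animal (vertical axis) in the 4 groups (horizontal axis), with the mean and SD in black except for Gpr3, which has points alone. Prkar2b and Pde3b have higher means at 22 °C and Adrb1 lower ones, with overlap in controls for Prkar2b and Adrb1. Prkaca and Adcy3 separate controls from knockouts at 30 °C, and Gpr3 shows 1 animal at 0.818.

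The members varied more within groups than most genes. The SD of log2 values around the group means was 0.27 (Prkaca) to 0.55 (Adrb1), against a median of 0.21 over the genes tested, so the members lay between the percentiles 71.0 and 95.2. For Adrb1 the 95% interval of the knockout effect at 30 °C ran from -0.29 to 1.41, and for Prkaca at 22 °C from -0.35 to 0.42.

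The rest of the pathway was described with 136 further genes, of which 135 were in the table and 108 passed the filter. At 22 °C 3 of the 108 were called for genotype, 2 higher and 1 lower, which is 2.78% against 1.80% of all genes. Ppargc1a, a coactivator of mitochondrial biogenesis that cAMP induces, rose from 9.39 to 22.6 in controls to 20.3 to 48.4 in knockouts (log2 fold change 1.14 ± 0.25, limma, adjusted p = 0.0391). Gnb1, a G protein β subunit, rose by 0.51 ± 0.10 (adjusted p = 0.0258), and the melanocortin receptor Mc5r fell by 1.09 ± 0.21 (adjusted p = 0.0229). Leaving out 1 animal ended these calls in 6 of 8 fits for Ppargc1a, 7 of 8 for Gnb1 and 3 of 8 for Mc5r.

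At 30 °C 16 of the 108 were called, 12 higher and 4 lower, which is 14.8% against 13.3% of all genes. Among 10 cAMP-induced transcripts 3 rose and 1 fell. Fos, an immediate early gene, was at 2.99, 38.6 and 17.5 in controls and 108, 177 and 60.1 in knockouts (log2 fold change 2.89 ± 0.66, limma, adjusted p = 0.0124). Sik1, a salt-inducible kinase, rose by 2.08 ± 0.52, and the nuclear receptor Nr4a3 by 1.77 ± 0.45. Ucp1, the uncoupling protein of thermogenesis, fell by 1.34 ± 0.37 (limma, adjusted p = 0.0312). Among the receptors for stimulatory G proteins the prostaglandin receptor Ptger4 rose by 1.25. Adcy7, a cyclase of immune cells, rose by 1.37 while Adcy6 fell. Gnb1 rose by 0.73 and Gng2 by 0.63, the anchoring protein Akap12 by 1.59, the phosphodiesterase Pde1b by 0.65, and Atf1, a transcription factor of the CREB family, by 0.47. Of the 12 genes of desensitization, Arrb2 rose by 0.96 and Grk2 by 0.36, and Grk3 fell by 0.77. Pnpla2, the triglyceride lipase of adipocytes, fell by 0.73 and was the only 1 of 5 lipolysis genes called; under quantile normalization it was 0.02. Fos, Adcy6, Adcy7, Akap12, Gnb1 and Pnpla2 were called in all 6 fits that left out 1 animal, and the other 10 lost the call in 1 to 5 of them. The same marker lists as for Prkaca moved in this comparison, and their part in these values was not tested.

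**Figure D4:**
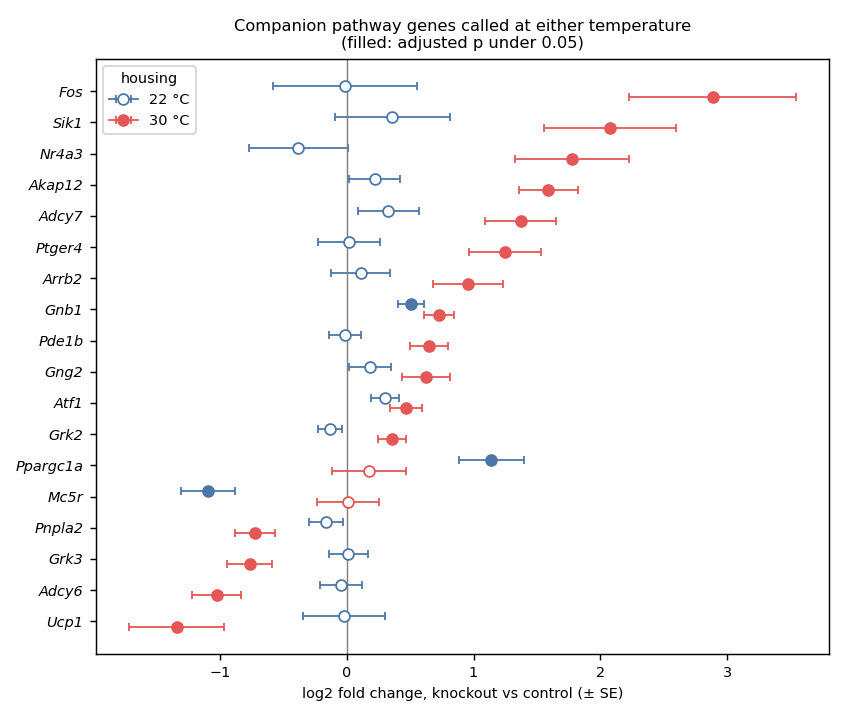
Log2 fold changes of knockout against control (horizontal axis, bars are SE) for the 18 further pathway genes called at 22 °C (blue) or 30 °C (red); filled points have an adjusted p under 0.05. Gnb1 is filled at both temperatures, Ppargc1a and Mc5r at 22 °C alone, and the other 15 at 30 °C alone; no difference between temperatures passed the test.

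Between temperatures 51 of the 108 further genes were called in controls, 26 higher and 25 lower at 22 °C (47.2%, against 38.4% of all genes), and 55 in knockouts, 28 higher and 27 lower (50.9%, against 51.8%). Of the 10 cAMP-induced transcripts, 4 were higher and 2 lower in controls, and 3 higher and 5 lower in knockouts. The 11 other receptors for the stimulatory G protein had 2 higher and 5 lower in controls, and 1 higher and 4 lower in knockouts. Of the 12 anchoring proteins tested, 6 were higher and 1 lower in controls and 7 higher and 2 lower in knockouts. Of the 11 other phosphodiesterases, 4 were higher and none lower in controls, and 5 were higher and 2 lower in knockouts; Pde7b was higher by 1.61 and 1.81 and Pde4d by 0.94 and 0.999 (limma, adjusted p from 0.000495 to 0.0183 over both genes). The ranges of Pde4d overlapped in controls, and its call there was lost in 3 of 7 fits without 1 animal (0.75 to 0.92, adjusted p up to 0.0550) and with the compared groups alone. Of the 5 lipolysis genes, 1 was higher and 4 lower in controls, and 1 higher and none lower in knockouts. After GC correction 3 of the lower calls in controls were lost, those of Lipe (-0.30, adjusted p = 0.195), Plin1 (-0.25, adjusted p = 0.411) and Pnpla2 (-0.22, adjusted p = 0.390), and Plin1 also lost its call in 3 of 7 fits without 1 animal. The GC correction left 4 of 7 calls of the anchoring proteins in controls and 8 of 9 in knockouts, and 2 of 4 and 6 of 7 of the phosphodiesterases. In controls and knockouts it left 5 of 7 and 3 of 5 calls of the other receptors for the stimulatory G protein. It left 6 of 6 and 7 of 8 of the cAMP-induced transcripts, and 1 of 6 and 3 of 4 of the other G protein subunits. The counts over all 108 genes are before that correction.

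The genes whose pattern over the 14 samples was most like that of a member differed between members. By Pearson's r of log2 values, given as a description, Prkar2b was nearest to Gpbp1l1 (0.988), Pde3b to Hp1bp3 (0.981), Prkaca to Slc25a42 (0.971), Adcy3 to Chdh (0.962), Adrb1 to Dusp5 (0.934), Adora2a to Aqp1 (0.933), Adrb3 to Trpc4ap (0.859) and Gnas to Guca1b (0.828). The points share library, scaling and the difference between temperatures. The second nearest gene to Adora2a was Egfl7, an endothelial marker (0.920), which like Adora2a was highest among the controls at 22 °C in control 4, at 66.7 against 37.7 to 45.4. Other endothelial markers did not all follow Egfl7. Of the 8, 3 were called lower at 22 °C in controls and 2 in knockouts, and none higher. Fold changes were above 0 for 1 in controls and 3 in knockouts, with Tek at 0.24 and 0.50. The part of endothelial cells in the Adora2a value was not tested.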

How the data were processed

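RNA-seq of brown adipose tissue from 14 mice was used as the FPKM per gene that the authors deposited, for 35275 Ensembl genes; mm9 is named as the genome build per the submitters' processing notes, and the aligner, counter and use of strand are not given in the sources used here. Each table column matched 1 sample title, and 0 columns were left without a sample. Whole reads were recovered from value steps in 14953 genes with 1 transcript (89.2% to 91.2% of the values tested came out whole, to within 0.05 reads), and gave the depth. FPKM were divided by the median ratio over 12777 nuclear genes above 0 in every library, mitochondrial genes being left out since deleting Lrpprc changes them. Genes with FPKM of at least 1 in at least 3 samples (13079) were tested as log2(scaled FPKM + 1), which understates changes of low genes, with limma 3.58.1 in R 4.3.3 (lmFit, eBayes with trend, a mean per group over all 14 samples). The p-values are two-sided, adjusted by Benjamini-Hochberg over all genes tested, and called under 0.05. Pairs of replicates differed beyond counting noise (chi-square per degree of freedom 11.9 to 177). The p-values measure the spread between these mice; the labels do not state litters. Symbols, GC content and overlaps came from GENCODE M21 and promoters from RefSeq, both of build GRCm38, without converting coordinates. The fit was tested on simulated data. Alternatives were other pseudocounts, filters, scalings, sample weights and sets of samples; GC correction and scaling over genes of at least 1 FPKM were added after seeing the data. The members and gene lists were chosen with earlier results of these data known. All members are named; of the other lists, the highest gene of a role, genes called for genotype (at most 5 a direction) and family members with shares; Pde7b, Pde4d, Lipe and Plin1 were named after their values were seen.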

Additional observations from a re-analysis of the deposited data

Results flagged for a closer look

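Adrb1 in controls at 22 °C stood out because its highest sample, control 1 at 12.002 scaled FPKM, was separated from the next by 0.906 of the group's whole log2 range. Gpr3 in knockouts at 22 °C stood out because knockout 1, at 0.818 scaled FPKM, was separated from the next by 0.972 of the range. The 2 groups at 22 °C, of 4 animals each, were examined for the 9 genes (18 sets of values), and chance alone sets such a mark in about 1 of 20 groups.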

How the results depend on the processing

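No paired analysis was possible because the animals' identifiers carry no replicate number that groups share. Lrpprc kept its direction and call for genotype in every alternative. The number of genes called for genotype at 22 °C (235) was 122 without a filter, 3248 for FPKM as deposited (3167 higher, 81 lower, against 109 and 126), 461 with the same nuclear total (386 higher, 75 lower), 872 with sample weights, 85 with the compared groups alone and 63 to 256 without 1 animal. At 30 °C (1734; 1011 higher, 723 lower) it was 4571 as deposited (4280 higher, 291 lower), 2634 with the same total (2225 higher, 409 lower), 3596 with sample weights and 795 to 2016 without 1 animal. FPKM as deposited moved the median gene by 0.24 and 0.31. For temperature in controls (5028) it was 2982 after GC correction, and in knockouts (6775) 4331 for genes with a mean FPKM of at least 5. For the difference of knockout effects (0) it was 9 without a filter, 6 as deposited, 8 with quantile normalization, 10 with the same total, 1 without trend, 180 with sample weights, 13 after GC correction and 0 to 110 without 1 animal; the cause was not tested. Directions turned in some fits, all of values that were not called in the main fit except Gnb2 and Pnpla2. For genotype at 22 °C these were Adrb3 (0.083), Gnas (0.0041) and Pde3b (0.18) as deposited, Pde3b with the same total (0.028), Adora2a with quantile normalization (-0.0037), Adcy3 (-0.52), Prkaca (-0.17) and Prkar2b (-0.15) with sample weights, and the same 3 without the controls whose identifiers begin with R (-0.68, -0.25 and -0.30). Pnpla2 at 30 °C was 0.024 with quantile normalization. For temperature, Gnas in controls was -0.016 as deposited, and after GC correction Gnb2 was 0.15 in controls and 0.067 in knockouts, Adrb3 0.18 and Adora2a 0.093 in knockouts. For the difference of effects, sample weights gave Adrb1 0.028, Adrb3 -0.14, Adcy3 -0.15 and Lrpprc -0.18, and leaving out the R controls gave Adrb3 -0.12, Adcy3 -0.32, Pde3b -0.10 and Lrpprc -0.21. Leaving out 1 animal turned the direction of further uncalled values. For genotype at 22 °C the ranges were -0.20 to 0.27 for Adora2a, -0.37 to 0.28 for Adcy3, -0.17 to 0.14 for Prkaca, -0.059 to 0.32 for Prkar2b and -0.34 to 0.052 for Pde3b, and at 30 °C -0.043 to 0.96 for Adrb1 and -0.038 to 0.42 for Gnas. For temperature they were -0.14 to 0.32 for Gnas in controls and -0.42 to 0.025 for Adrb3 in knockouts. For the difference of effects they were -0.54 to 0.46 for Adrb1, -0.075 to 0.47 for Adrb3, -0.017 to 0.63 for Adcy3 and -0.0066 to 0.41 for Lrpprc. Over all fits, 724 of the members' values kept direction and call, 39 turned, 36 lost a call and 9 gained one. At these depths Gpr3 could not be compared.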
